A study of Mus musculus with 6 samples.

Results

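The genes described here encode the proteins of the mitochondrial ribosome, the particle inside mitochondria that translates the messages of mitochondrial DNA. They are the protein-coding genes whose symbol is Mrpl (large subunit) or Mrps (small subunit) followed by a number, which gave 78 genes, 49 named Mrpl and 29 named Mrps, of 24415 gene rows. All 78 passed the filter on low counts, among 15994 genes tested. RNA came from inguinal white adipose tissue, the subcutaneous fat of the groin, of nonfasted C57BL/6 mice aged 12 weeks. The groups were WT and Hsp20 KO (knockout of Hspb6, the gene of the small heat shock protein Hsp20), with 3 mice and 3 libraries each. The labels do not say which part of Hspb6 the knockout allele lacks, whether mice were littermates, or in which cells the gene was removed.

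Every protein of the mitochondrial ribosome is encoded in the nucleus, made in the cytosol and imported, whereas the ribosomal RNAs and the messages it reads come from mitochondrial DNA. Those messages encode core subunits of the respiratory chain and of ATP synthase, so the particle is needed wherever respiration is built, including the thermogenic fat cells that can appear in this depot. Some of its proteins descend from bacterial ribosomal proteins and others were added in the lineage of mitochondria, and several carry names that do not match their place. Mrps18a and Mrps30 sit in the large subunit despite their names, and Mrps36 is a subunit of the 2-oxoglutarate dehydrogenase complex of the citric acid cycle rather than of the ribosome. By place, 51 of the genes encode large subunit proteins and 26 small subunit proteins, with Mrps36 apart.

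The libraries held between 14078936 and 32648746 counts, and single members between 156 and 2442 counts in a library. Hspb6 itself had 12.6, 9.43 and 8.95 CPM (the count as a share of the TMM-scaled library size) in WT and 8.86, 1.51 and 3.94 CPM in the libraries labelled Hsp20 KO replicates 1 to 3. Replicate 1 labelled Hsp20 KO thus lay just below the lowest WT library, and the counts, the splits of the members and the named genes that were refitted are also given without it. Over all 6 libraries Hspb6 was at -1.08 ± 0.51 (log2, SE; edgeR adjusted p = 0.227), and without that library it fell by 1.99 (0.0221). WT replicate 1 stood apart in skeletal muscle transcripts: the 8 muscle markers summed to 808 CPM there and to between 72.2 and 144 CPM in the other libraries. The 7 white adipocyte markers summed to between 13080 and 19710 CPM in the 6 libraries. The 7 brown adipocyte markers summed to between 68.1 and 92.1 CPM in WT and to 227, 677 and 789 CPM in the libraries labelled knockout. The 5 red blood cell markers summed to between 8985 and 10320 CPM in WT and to between 3963 and 4833 CPM in the libraries labelled knockout. Epidermis markers (3 of 7 tested) summed to between 55.5 and 68.8 CPM in WT and to between 12.5 and 14.9 CPM in the libraries labelled knockout, and 2 of them fell. Of 6 macrophage markers none passed with edgeR, 4 were lower with an unadjusted p below 0.05 and the median log2 change was -0.52. In tissue RNA, more cells of a type and more RNA per cell cannot be told apart, and the part of these markers in the results below was not tested.

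Promoters are shown for some of the members on which the results turn, to let the starts of these genes be compared. RefSeq promoter windows on GRCm38.p6 (250 bases before to 50 after a start, so the last 50 bases are transcribed) were matched for 69 of the 78 genes. Mrps34 and Mrps35 passed the test but were not among these 69, so neither window is shown. Capitals mark matches, on either strand, to 6 motifs: an NRF1 motif of 10 letters, of which 1 may be any base (its match is written out in the Mrpl12 and Mrps21 windows), CCGGAAG for GABPA and other ETS factors, AAGATGG for YY1, AAGGTCA for estrogen-related receptors, GGGCGG for SP1 and CACGTG for an E-box, none of which contains another. These factors are regulators known at genes for mitochondrial proteins or at GC-rich promoters in general. Mrpl18 (chr17:12916042-12916341, minus strand) passed the test, Mrpl12 (chr11:120484387-120484686, plus strand) had the largest estimate among ribosomal members, Mrps21 (chr3:95871465-95871764, minus strand) had the highest level per length, and Mrpl35 (chr6:71823735-71824034, minus strand) had the lowest estimate.
Mrpl18: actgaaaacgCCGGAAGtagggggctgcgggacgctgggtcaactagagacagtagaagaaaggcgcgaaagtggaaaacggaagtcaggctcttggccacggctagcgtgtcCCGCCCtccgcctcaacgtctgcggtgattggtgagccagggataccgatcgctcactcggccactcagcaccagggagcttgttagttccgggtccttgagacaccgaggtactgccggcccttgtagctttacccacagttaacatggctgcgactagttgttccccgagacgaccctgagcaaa
Mrpl12: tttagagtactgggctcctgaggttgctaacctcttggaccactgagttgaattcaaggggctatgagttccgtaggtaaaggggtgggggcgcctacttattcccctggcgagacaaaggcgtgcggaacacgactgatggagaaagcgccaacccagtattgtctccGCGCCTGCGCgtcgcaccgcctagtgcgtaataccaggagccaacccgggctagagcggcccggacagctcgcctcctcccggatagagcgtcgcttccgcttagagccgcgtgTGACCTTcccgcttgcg
Mrps21: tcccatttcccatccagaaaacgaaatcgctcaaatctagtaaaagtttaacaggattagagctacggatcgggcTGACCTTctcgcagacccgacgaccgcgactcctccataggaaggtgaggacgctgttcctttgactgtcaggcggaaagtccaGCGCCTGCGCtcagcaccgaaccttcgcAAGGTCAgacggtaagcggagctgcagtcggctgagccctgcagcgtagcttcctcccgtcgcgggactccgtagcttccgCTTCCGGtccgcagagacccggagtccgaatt
Mrpl35: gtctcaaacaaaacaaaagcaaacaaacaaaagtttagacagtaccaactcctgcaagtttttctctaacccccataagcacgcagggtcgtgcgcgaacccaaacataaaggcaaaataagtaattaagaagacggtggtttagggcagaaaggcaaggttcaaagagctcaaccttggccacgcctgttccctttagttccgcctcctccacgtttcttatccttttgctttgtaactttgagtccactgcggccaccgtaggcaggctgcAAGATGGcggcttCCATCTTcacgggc
The Mrpl18 window lies around a start inside the span annotated for the gene. It held 1 ETS and 1 SP1 match, and the Mrpl12 window 1 NRF1 match and 1 receptor match after the start. The Mrps21 window held 1 NRF1 match, 1 ETS match and 2 receptor matches. The Mrpl35 window held 2 YY1 matches on opposite strands, both after the start.

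Mrpl46 (chr7:78783040-78783339, minus strand) and Mrps11 (chr7:78782881-78783180, plus strand) are shown because these neighbours, one of each subunit, start back to back, so that their windows share 141 bases read in opposite directions.
Mrpl46: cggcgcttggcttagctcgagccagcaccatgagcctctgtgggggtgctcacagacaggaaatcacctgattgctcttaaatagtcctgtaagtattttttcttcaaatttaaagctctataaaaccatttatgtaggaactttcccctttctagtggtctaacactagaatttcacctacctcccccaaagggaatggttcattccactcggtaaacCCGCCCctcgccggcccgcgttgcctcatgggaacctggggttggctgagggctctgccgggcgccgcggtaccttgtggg
Mrps11: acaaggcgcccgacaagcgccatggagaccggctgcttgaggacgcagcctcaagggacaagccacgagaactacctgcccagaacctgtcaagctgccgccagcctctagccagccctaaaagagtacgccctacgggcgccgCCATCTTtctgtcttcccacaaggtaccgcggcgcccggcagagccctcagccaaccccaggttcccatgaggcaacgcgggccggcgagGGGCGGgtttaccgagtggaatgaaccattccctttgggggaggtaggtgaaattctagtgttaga
Both windows hold the same SP1 match, and Mrps11 alone has a YY1 match. Mrpl46, a protein of the central protuberance of the large subunit, had a log2 change of 0.19 ± 0.13 (SE), and Mrps11, a conserved small subunit protein, of 0.16 ± 0.098, and neither passed the test (edgeR adjusted p = 0.386 and 0.358). Their annotated exons share 173 bases, 12.2% of those of Mrpl46 and 7.97% of those of Mrps11. The strand setting is not known, so reads from the shared bases cannot be told apart.

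Most members had slightly higher levels in the libraries labelled knockout, few passed the test gene by gene, and no change was large. Of the 78 members 3 rose and 0 fell at an adjusted p under 0.05 (edgeR quasi-likelihood test, Benjamini-Hochberg over all genes tested). That is 3.85% called higher, against 4.23% of all tested genes called higher and 3.42% called lower, so the share of calls was no greater than the background. The direction was less evenly spread: 72 of 78 members, 92.3%, had a log2 change above 0, against 50.1% of all tested genes. The genes of the cytosolic ribosome leaned the same way, with 39 of 47 large subunit genes (83.0%) and 29 of 32 small subunit genes (90.6%) above 0. The median log2 change of the members was 0.18, a fold of 1.13, with quartiles of 0.12 and 0.27, and over all tested genes the median was 0.001 with quartiles of -0.19 and 0.18. Every library labelled knockout lay above every WT library for 36 members, 46.2%, against 16.9% of all tested genes, and below for 1 member, against 15.6%. With knockout-labelled replicate 1 left out these were 58 members above and 1 below, against 23.5% and 22.4% of tested genes, and without WT replicate 1 they were 38 and 1, against 22.1% and 21.4%. With an unadjusted p below 0.05, 28 members were higher and 1 was lower, against 13.3% and 12.7% of all tested genes. The members share libraries and may vary together, so these shares count genes and not independent observations.

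**Figure D1:**
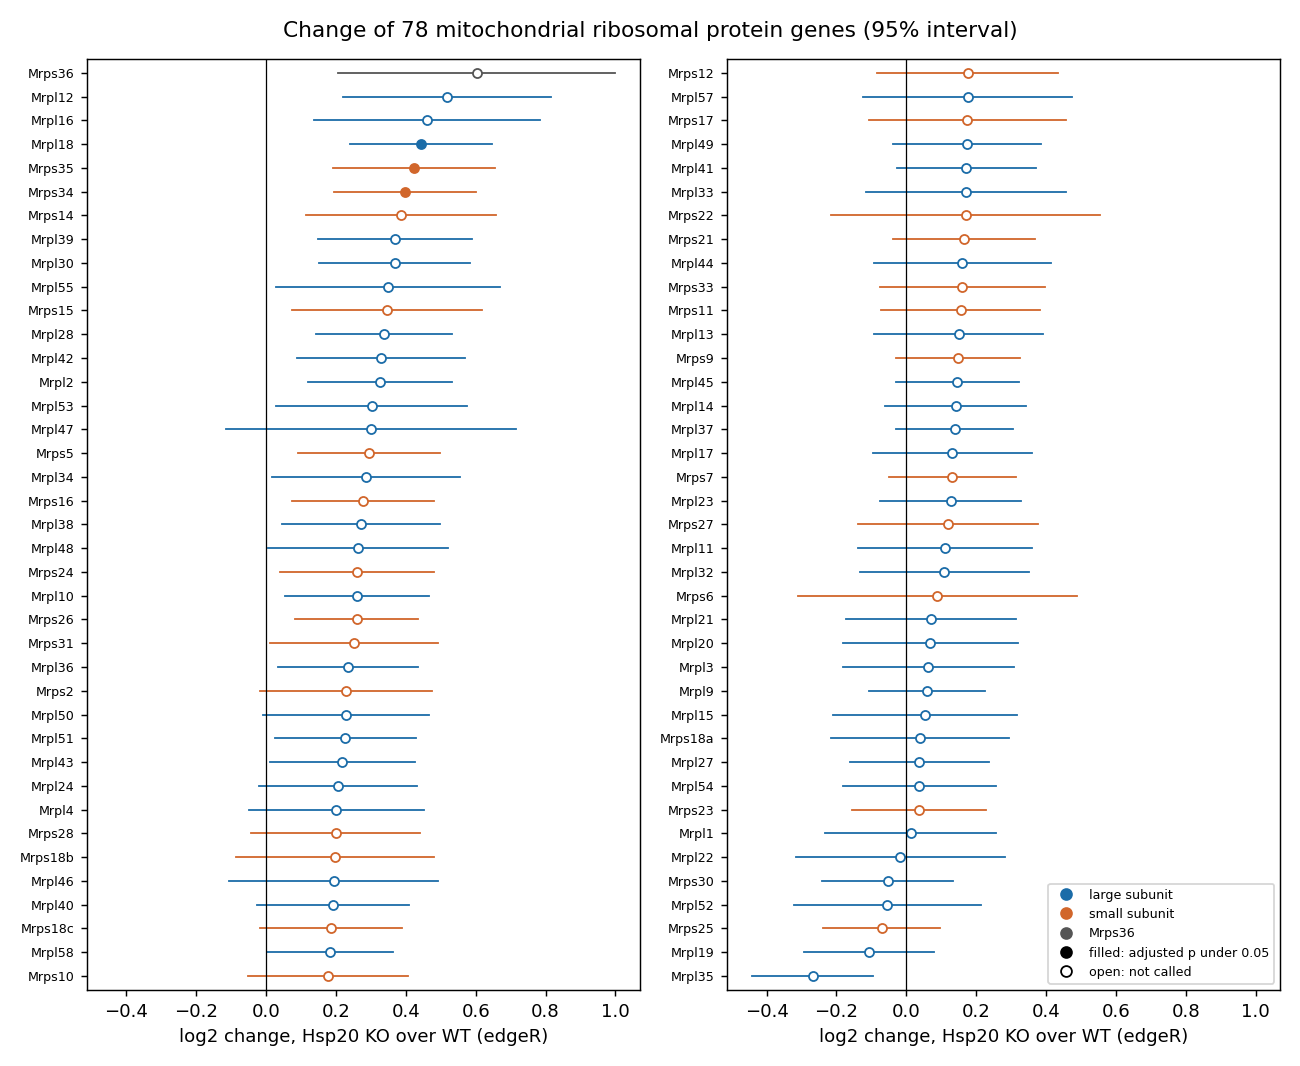
Log2 change (horizontal axis) of each of the 78 members, ordered by its value, with the 95% interval of the edgeR fit as a line; colours give the subunit and filled points the 3 members called. Points to the right of 0 number 72, and only Mrpl35 has an interval wholly below 0.

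In the fit over all 6 libraries the size of the shift was bounded more firmly than its significance. No estimate reached a fold of 2, and the 95% interval lay below a 2-fold rise for all 78 members and below a 1.5-fold rise for 67. An estimate of at least 1.5-fold was found for 1 member, Mrps36. These bounds were not computed without the library labelled knockout replicate 1, so they cover the fit over all libraries only. Without that library the members' median log2 change was 0.24 and that of Mrps36 was 0.77. A member that missed the threshold is not shown to be equal in the groups.

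Seen by library, the members took 0.186%, 0.209% and 0.205% of all counts in WT replicates 1 to 3, and 0.210%, 0.232% and 0.231% in the libraries labelled knockout replicates 1 to 3. The means were 0.200% ± 0.0124 in WT and 0.224% ± 0.0126 in the libraries labelled knockout (n = 3 each, SD). The share of WT replicate 2 and that of the library labelled knockout replicate 1 were nearly the same, and the other libraries labelled knockout lay above both. In CPM, which also takes the TMM factors into account, the sums were 1885, 2034 and 2021 in WT and 2117, 2260 and 2416 in the libraries labelled knockout, and the groups did not overlap. The members' median distance from their WT mean on the log2 scale was -0.08, 0.05 and 0.03 in WT and 0.09, 0.18 and 0.30 in the libraries labelled knockout replicates 1 to 3. WT replicate 1, the library with the muscle transcripts, was the lowest of the 6 libraries for 53 members. The library labelled knockout replicate 3, the smallest, was the highest for 54. The library labelled knockout replicate 1, with the least change of Hspb6 and the lowest sum of brown adipocyte markers in its group, lay above all WT libraries for 38 members, against 60 and 68 for replicates 2 and 3. For single libraries, the shares of all tested genes that were lowest, highest or above all WT libraries were not determined. A link of these counts to Hspb6 or to the markers was not tested.

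**Figure D2:**
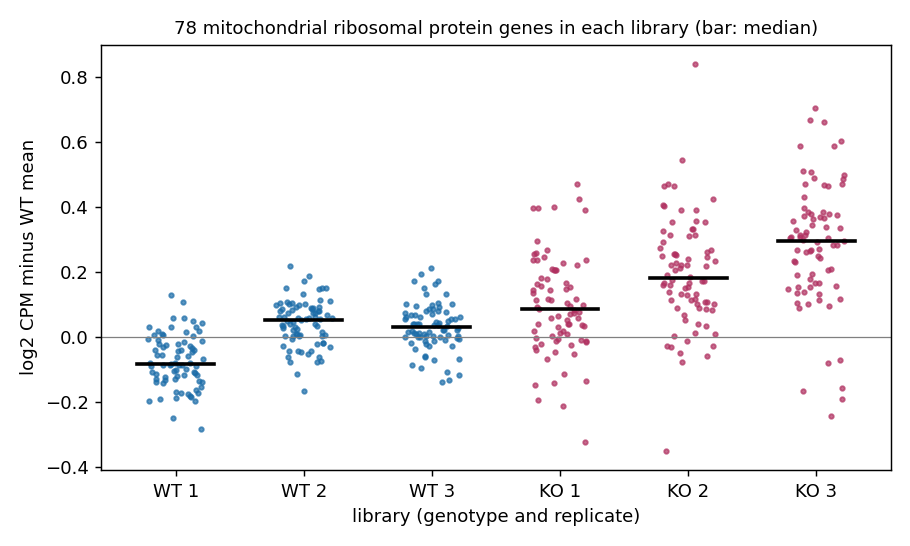
Log2 CPM of each of the 78 members minus its WT mean (vertical axis) in each of the 6 libraries, with a bar at the median. The median runs from -0.08 in WT replicate 1 to 0.30 in the library labelled knockout replicate 3, and the points of all libraries overlap.

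These counts depended on single libraries. Without the library labelled knockout replicate 1, edgeR called 8 members higher and 0 lower, against 5.82% and 4.52% of tested genes, with a median of 0.24. These were Mrps36, Mrpl16, Mrpl18, Mrpl39, Mrpl30, Mrpl42, Mrps5 and Mrpl38, so that of the 3 members called over all libraries Mrpl18 alone was called without that library. Without WT replicate 1 it called 1 higher, Mrps34, and 0 lower, against 2.0% and 2.02% of tested genes, with a median of 0.14 and 67 of 78 members above 0. Leaving out WT replicate 2 or 3, or knockout-labelled replicate 2 or 3, it called 0 members (with an unadjusted p below 0.05, 21, 21, 23 and 18 higher and 1 lower in each). Shares of all tested genes at that unadjusted p were not determined for these fits. Over all 6 libraries they were 13.3% higher and 12.7% lower. The shares called at an adjusted p under 0.05 were 0.488% higher and 0.358% lower in the fit lacking WT replicate 2. In the fit lacking WT replicate 3 they were 0.464% and 0.328%. They were 2.0% higher and 1.77% lower without knockout-labelled replicate 2, and 2.01% higher and 1.63% lower without knockout-labelled replicate 3. DESeq2 called 11 higher and 0 lower, against 7.1% and 6.4% of tested genes, and limma-voom called 3 higher and 0 lower, against 4.03% and 3.26%.

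Among the large subunit proteins 1 of 51 rose and 0 fell, with a median log2 change of 0.17 and 46 above 0. With knockout-labelled replicate 1 left out, 6 rose and 0 fell, with a median of 0.22. Mrpl18 (chromosome 17, 12911345 to 12917787 on GRCm38), a protein of the central protuberance, was the member that passed. Its CPM was 30.2, 36.0 and 34.9 in WT and 45.1, 45.1 and 47.4 in the libraries labelled knockout, with WT replicate 1 the lowest and no overlap. Mean Mrpl18 rose from 33.7 ± 3.09 to 45.9 ± 1.36 CPM (n = 3 each, SD), a log2 change of 0.44 ± 0.088 (SE; edgeR adjusted p = 0.0284). The call was kept without the library labelled knockout replicate 1 (edgeR adjusted p = 0.0352) and lost when any other library was left out, WT replicate 1 among them (0.0539 to 0.107). Its exons overlap those of Tcp1, a chaperonin subunit, over 10.1% of their length on the opposite strand, and Tcp1 had a log2 estimate of 0.11 (edgeR adjusted p = 0.532).

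The stalk of the large subunit binds the factors that drive translation. Mrpl12 (chromosome 11, 120484637 to 120488754), the stalk protein that also binds the mitochondrial RNA polymerase, had 31.8, 42.9 and 42.4 CPM in WT and 53.5, 53.3 and 61.1 CPM in the libraries labelled knockout. The groups did not overlap, and WT replicate 1 lay well below the other WT libraries. Its log2 change of 0.52 ± 0.13 (SE) just missed the threshold (edgeR adjusted p = 0.0513), was 0.38 without WT replicate 1 (0.0622) and 0.55 leaving out knockout-labelled replicate 1 (0.0598). Mrpl12 was called with DESeq2 (adjusted p = 0.00622) and in edgeR with DESeq2 size factors, upper quartile normalization, no filter, robust dispersions or thinned counts (0.04 to 0.0493). It was not called with limma-voom (0.0522) or with any single library left out (edgeR adjusted p up to 0.128). The other stalk proteins ranged from 0.04 for Mrpl54 through 0.11 for Mrpl11 and 0.26 for Mrpl10 to 0.30 for Mrpl53, and none of the 5 passed with or without the library labelled knockout replicate 1. With an unadjusted p below 0.05, 3 of the 5 were higher.

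All 7 listed proteins of the central protuberance had a log2 change above 0, with a median of 0.26, and 1, Mrpl18, passed. Leaving out knockout-labelled replicate 1, the median was 0.30 and 2 passed, and without replicate 3 of that group it was 0.15 and 0 passed. Around the exit tunnel, where the new chain leaves the large subunit towards the inner membrane, 5 of 6 were above 0, with a median of 0.14, and none passed (edgeR; 0 with an unadjusted p below 0.05 as well), and none passed without the library labelled knockout replicate 1, where the median was 0.19. Mrpl45, the protein of that site that binds the membrane, had 27.4, 27.6 and 27.7 CPM in WT and 29.9, 29.2 and 32.6 CPM in the libraries labelled knockout, a log2 change of 0.15 ± 0.076 (edgeR adjusted p = 0.268). Mrpl22, a tunnel protein, had 9.51, 11.6 and 11.2 CPM in WT and 9.76, 10.5 and 11.8 CPM in the libraries labelled knockout, and the groups overlapped throughout (log2 change -0.02 ± 0.13, edgeR adjusted p = 0.949). These sites hold few genes, and the difference between them was not tested.

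Further large subunit members lay near the threshold. Mrpl28, a conserved protein, had 25.4, 26.5 and 26.6 CPM in WT and 31.5, 31.6 and 36.2 CPM in the libraries labelled knockout, with no overlap (log2 change 0.34 ± 0.084, edgeR adjusted p = 0.052), and was at 0.37 without the library labelled knockout replicate 1 (0.0503). Mrpl16, a conserved protein that lies near the catalytic centre, had 16.9, 19.6 and 19.0 CPM in WT and 20.5, 26.9 and 29.3 CPM in the libraries labelled knockout (log2 change 0.46 ± 0.14, edgeR adjusted p = 0.0862), and rose by 0.60 without that library (0.0164). In both genes replicate 1 was the lowest library labelled knockout and still lay above every WT library.

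Mrpl35 (chromosome 6, 71812997 to 71823784) went the other way. This conserved large subunit protein had 31.0, 30.2 and 30.7 CPM in WT and 26.4, 24.0 and 25.8 CPM in the libraries labelled knockout. Every WT library lay above every library labelled knockout, the replicates of WT agreed closely, and it was the only member with groups that did not overlap in this direction. The log2 change was -0.27 ± 0.074 (SE; 95% interval -0.44 to -0.096) and did not pass (edgeR adjusted p = 0.0683). It was negative in every alternative run, from -0.32 to -0.23, and passed 0.05 in none of them. The other members below 0 were Mrpl19 (-0.11), Mrps25 (-0.07), Mrpl52 (-0.05), Mrps30 (-0.05) and Mrpl22 (-0.02), all with overlapping groups.

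Among the small subunit proteins 2 of 26 rose and 0 fell, with a median log2 change of 0.18 and 25 above 0. Leaving out knockout-labelled replicate 1, 1 rose and 0 fell, with a median of 0.26. Mrps34 (chromosome 17, 24895120 to 24896289), a mitochondria-specific protein needed for small subunit stability, had 26.3, 23.0 and 22.9 CPM in WT and 31.6, 30.2 and 33.3 CPM in the libraries labelled knockout. WT replicate 1 was its highest WT library, unlike most members, and the groups did not overlap. Mean Mrps34 rose from 24.1 ± 1.92 to 31.7 ± 1.52 CPM (n = 3 each, SD), a log2 change of 0.40 ± 0.087 (SE; edgeR adjusted p = 0.0383), or 0.46 without WT replicate 1 (0.0367). With knockout-labelled replicate 1 left out the adjusted p was 0.0542, and it was between 0.0604 and 0.156 when another of the remaining libraries was left out. The call was also lost after thinning all libraries to the size of the smallest (log2 change 0.33, edgeR adjusted p = 0.0543). The exons of Mrps34 overlap those of other genes over up to 63.4% of their length (Mapk8ip3 and Nme3), and the sources used here do not give the strand setting, so its reads cannot be told from theirs. Mapk8ip3 and Nme3 had log2 estimates of 0.009 and 0.09 (edgeR adjusted p = 0.942 and 0.724). Of 33 members whose exons overlap another gene 2 rose, with a median of 0.18, and of the other 45 members 1 rose, with a median of 0.18. Leaving out knockout-labelled replicate 1, these were 1 and 7, with medians of 0.24 and 0.25.

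Mrps35 (chromosome 6, 147042728 to 147070906), a mitochondria-specific protein of the small subunit, had 14.3, 17.2 and 15.3 CPM in WT and 20.4, 20.3 and 22.1 CPM in the libraries labelled knockout. The groups did not overlap, and no annotated exon of another gene overlaps its exons. Mean Mrps35 rose from 15.6 ± 1.48 to 20.9 ± 0.987 CPM (n = 3 each, SD), a log2 change of 0.42 ± 0.099 (SE; edgeR adjusted p = 0.0446). Leaving out any single library ended the call (edgeR adjusted p from 0.0593, without the library labelled knockout replicate 1, to 0.167, without WT replicate 3).

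Mrps18a, Mrps18b and Mrps18c are paralogs of a single bacterial protein that sit at different places, Mrps18a in the large subunit and the other two in the small. Mrps18a had 23.4, 27.4 and 25.4 CPM in WT and 29.6, 24.3 and 24.1 CPM in the libraries labelled knockout, where replicate 1 was high and the others lay within the WT range (log2 change 0.04 ± 0.11, edgeR adjusted p = 0.856). Without the library labelled knockout replicate 1 its log2 change was -0.07 (edgeR adjusted p = 0.716). Mrps18b had 20.1, 24.6 and 24.1 CPM in WT and 22.6, 28.4 and 28.2 CPM in the libraries labelled knockout, with overlap (log2 change 0.20 ± 0.12, edgeR adjusted p = 0.352). Mrps18c had 21.3, 23.7 and 22.7 CPM in WT and 23.9, 25.5 and 27.7 CPM in the libraries labelled knockout, with no overlap (log2 change 0.18 ± 0.088, edgeR adjusted p = 0.231). Without that library Mrps18b was at 0.30 and Mrps18c at 0.24 (edgeR adjusted p = 0.142 and 0.171). The difference between paralogs was not tested.

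Mrps12 (chromosome 7, 28739641 to 28741821), the decoding centre protein, is the only member within 10 Mb of Hspb6, lying at -1813 kb from it. It had 13.4, 14.3 and 15.1 CPM in WT and 14.2, 17.2 and 17.2 CPM in the libraries labelled knockout, with replicate 1 inside the WT range (log2 change 0.18 ± 0.11, edgeR adjusted p = 0.364), and was at 0.27 without that replicate (0.170). Sars2, the mitochondrial seryl-tRNA synthetase, starts 172 bases away on the opposite strand and had a log2 estimate of 0.26 ± 0.12 (edgeR adjusted p = 0.223). Other places listed for decoding and the channel of the message, Mrps5, Mrps7 and Mrps24, also had positive estimates without passing, and the median of the 4 with Mrps12 was 0.22. With knockout-labelled replicate 1 left out the median was again 0.22 and 1 of them, Mrps5, passed.

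Mrps36 (chromosome 13, 100735940 to 100744659), the member that belongs to 2-oxoglutarate dehydrogenase, had the highest estimate of all 78. Its CPM was 10.6, 13.5 and 12.5 in WT and 14.3, 21.7 and 19.8 in the libraries labelled knockout, with no overlap but with replicate 1 close to WT. The log2 change of 0.60 ± 0.17 (SE) did not pass over all libraries (edgeR adjusted p = 0.0722), and was 0.77 without the library labelled knockout replicate 1 (0.0156). RefSeq lists 6 pseudogenes of 4 members, Mrpl23, Mrpl27, Mrpl48 and Mrps36, which have no row among those analysed here, so that the counts of these 4 genes are uncertain.

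**Figure D3:**
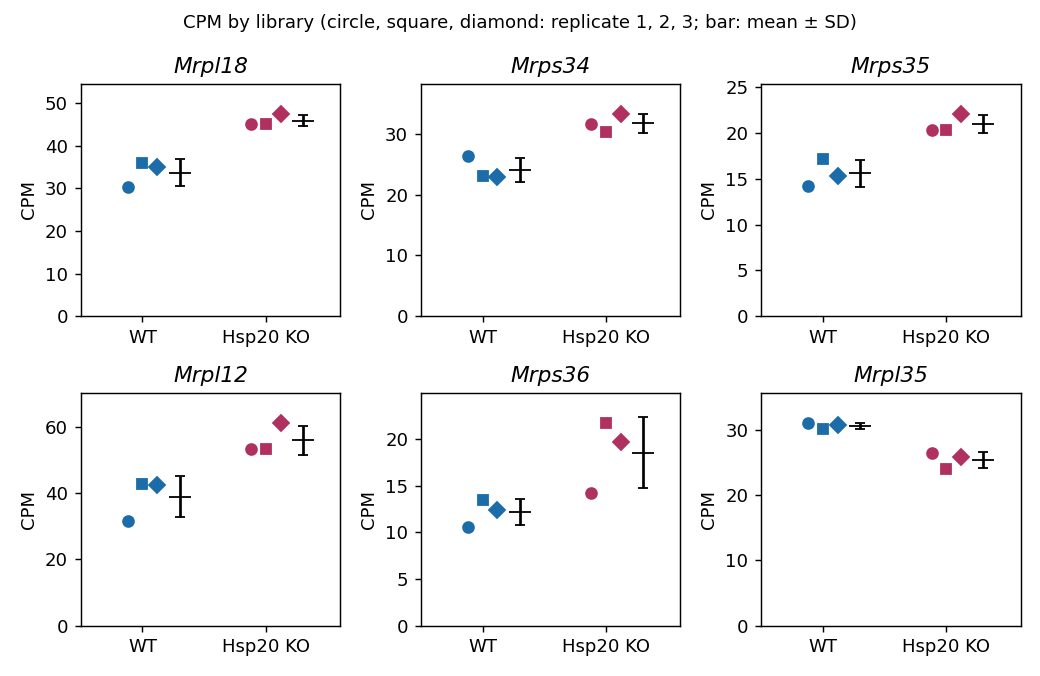
CPM (vertical axis, from 0) of Mrpl18, Mrps34, Mrps35, Mrpl12, Mrps36 and Mrpl35 in each library, with the mean and SD of 3 libraries beside each group. The groups do not overlap in any of the 6 genes, and Mrpl35 alone is lower in the libraries labelled knockout.

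Members differed far more from each other in level than between genotypes. Per length (CPM per kb of the principal GENCODE transcript), the WT mean ran from 2.31 ± 0.333 for Mrpl47 to 69.8 ± 4.15 for Mrps21, a range of 30.2-fold, with a median of 16.9. Mrps21 and Mrpl33, small conserved proteins, led the order, followed by Mrps6. Mrpl33 (54.2 ± 6.72) and Mrps6 overlapped within their SD, so their order is not resolved, and Mrps21 lay above both. The order and the range depend on the length used. For Mrpl33 the principal transcript has 478 bases and all annotated exons together 7326. Mrps6 shares up to 19.9% of its exon length with another gene. The order was nearly the same in both groups (Spearman rho 0.987 across the 78 genes, which share the same libraries and lengths). On the scale of CPM alone, Mrps25 had the most counts, 74.5 ± 1.35 in WT and 70.9 ± 3.99 in the libraries labelled knockout, ahead of Mrpl9 with 58.2 ± 1.28 and 60.6 ± 2.96. Mrps25 shares up to 69.8% of its exon length with Nr2c2, so its level is uncertain. At the low end, Mrpl47 had 6.48, 8.26 and 8.56 CPM in WT and 7.92, 9.43 and 11.6 CPM in the libraries labelled knockout, with overlap (log2 change 0.30 ± 0.18, edgeR adjusted p = 0.331). The log2 change was nearly unrelated to the level per length (Spearman rho 0.07) and to transcript length (-0.08) across the 78 genes.

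**Figure D4:**
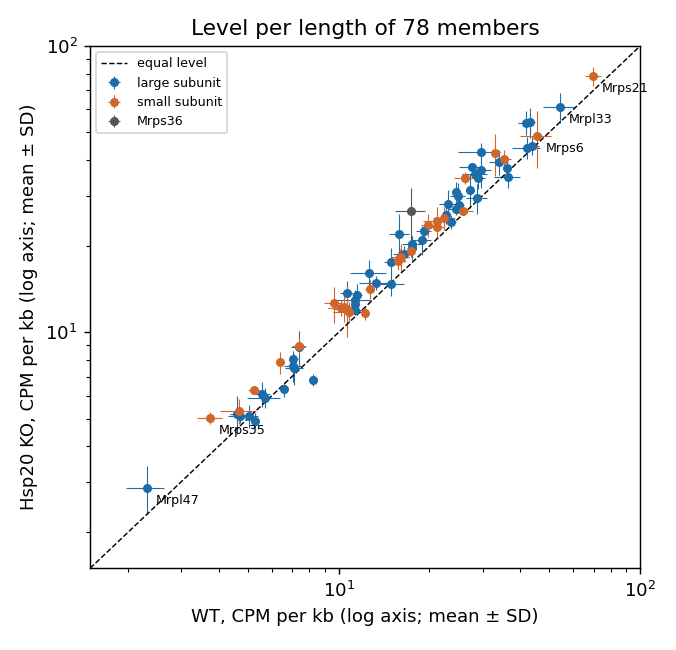
Level per length of each member in WT (horizontal) and in the libraries labelled knockout (vertical), both as CPM per kb on log axes, with SD over 3 libraries; the dashed line marks equal levels. Levels run from 2.31 for Mrpl47 to 69.8 for Mrps21 in WT, and most points lie slightly above the line.

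Split by the unified names of ribosomal proteins, 1 of 46 members that share a name with a bacterial protein rose, with a median log2 change of 0.18, and 2 of 31 members named as mitochondria-specific rose, with a median of 0.18. That naming puts Mrps18a and Mrps18b in the second set in spite of their bacterial relative. With knockout-labelled replicate 1 left out, 4 and 3 rose, with medians of 0.24 and 0.24. The members lie on 17 chromosomes, so they do not form a cluster. Of the 78, 33 (42.3%) start within 1 kb of the start of a protein-coding gene on the opposite strand. Of all 21938 protein-coding genes of GENCODE, tested here or not, 10.9% have such a neighbour, and the share among tested genes was not determined. The median log2 change was 0.18 for members with such a neighbour and for those without, or 0.24 for both without the library labelled knockout replicate 1. The neighbours that are not members themselves had a median of 0.11. Of 29 tested, 24 (82.8%) were above 0, against 50.1% of all tested genes. Every library labelled knockout lay above every WT library for 34.5% of them, against 16.9% of all tested genes. With edgeR 2 (6.9%) were higher and 0 lower, against 4.23% and 3.42% of all tested genes. The 2 were Ndufb5, a complex I subunit beside Mrpl47 (log2 change 0.62, edgeR adjusted p = 0.0219), and Wdfy1, beside Mrpl44 (0.71, edgeR adjusted p = 0.00527). Both were named after their values were seen. Twnk, the helicase of mitochondrial DNA beside Mrpl43, had a log2 estimate of -0.001 (edgeR adjusted p = 0.998).

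Of the 75 promoter windows of members, 34.7% held the ETS motif, against 15.1% of 15635 windows of tested genes and 8.86% of all 32851 windows. The NRF1 motif was in 17.3%, against 8.46% and 4.6%, and the YY1 motif in 17.3%, against 6.64% and 6.34%. The receptor motif was in 5.33%, against 3.48% and 4.72%, the SP1 motif in 52.0%, against 57.7% and 35.7%, and the E-box in 9.33%, against 9.27% and 7.15%. These shares count windows, and a gene with several windows enters more than once. By gene, the SP1 motif was in 34 of 69 members and the E-box in 5. Median GC content was 58.7% in the members' windows and 59.7% in those of tested genes. The 26 genes with an ETS match had a median log2 change of 0.17 and the 43 without one of 0.19, and the 13 with an NRF1 match of 0.16 against 0.18 for 56 without. Leaving out knockout-labelled replicate 1, these medians were 0.24 and 0.24 for ETS and 0.21 and 0.24 for NRF1. The 4 genes with a receptor motif, Mrpl12, Mrpl36, Mrps15 and Mrps21, had a median of 0.29, too few to compare. A match describes letters only.

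Other genes of mitochondrial translation gave few calls in number, in lists of 5 to 29 genes, to be read against the 4.23% of all tested genes called higher. Of 5 ribosomal proteins with other names (Dap3, Ptcd3, Aurkaip1, Chchd1 and Gadd45gip1) none passed with edgeR and 1 was higher with an unadjusted p below 0.05, with a median log2 change of 0.20, or 0.12 without WT replicate 1. Aurkaip1, a small subunit protein, had 40.2, 44.4 and 40.4 CPM in WT and 45.1, 49.2 and 52.7 CPM in the libraries labelled knockout, without overlap (log2 change 0.23 ± 0.087, edgeR adjusted p = 0.142). Among 29 assembly and rRNA modification factors 1 rose (3.45%) and 1 fell, with a median of 0.11. Mrm1, which methylates the large ribosomal RNA, rose from 11.6 ± 0.746 to 17.3 ± 1.92 CPM (n = 3 each, SD; log2 change 0.59 ± 0.12 SE, edgeR adjusted p = 0.0283), and by 0.67 without the library labelled knockout replicate 1 (0.0169). Ybey, an endoribonuclease of ribosomal RNA maturation, fell: it had 59.0, 55.4 and 59.4 CPM in WT and 40.0, 37.9 and 39.6 CPM in the libraries labelled knockout (log2 change -0.57 ± 0.071, edgeR adjusted p = 0.00765). In Ybey the library labelled knockout replicate 1 lay with the others of its group. The Ybey call was lost without WT replicate 3 (edgeR adjusted p = 0.052) and kept in all other alternatives.

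Of 16 translation factors 1 rose (6.25%) and 0 fell, with a median log2 change of 0.17. Gfm1, the mitochondrial elongation factor G1, rose from 39.3 ± 1.47 to 54.1 ± 6.21 CPM (n = 3 each, SD; log2 change 0.46 ± 0.098, edgeR adjusted p = 0.0359), and by 0.55 without the library labelled knockout replicate 1 (0.00889). Among the synthetases and the amidotransferase that charge mitochondrial tRNAs 3 of 20 rose (15%) and 0 fell, with a median of 0.11. Aars2, the alanyl-tRNA synthetase, rose 1.42-fold, Vars2, the valyl-tRNA synthetase, 1.34-fold and Gatb, an amidotransferase subunit, 1.37-fold (edgeR adjusted p = 0.0261, 0.0401 and 0.0261). Leaving out knockout-labelled replicate 1, 3 factors and 3 synthetases were higher and 3 assembly factors higher and 1 lower. In that fit 5.82% of all tested genes were higher and 4.52% lower. Leaving out WT replicate 2 or 3, or knockout-labelled replicate 2 or 3, 0 of all these genes were higher with edgeR. Without WT replicate 1, 2 synthetases were higher and 0 of the others, against 2.0% of all tested genes.

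Mitochondrial transcription and DNA replication had 0 of 11 called with edgeR (2 higher and 1 lower with an unadjusted p below 0.05), with a median log2 change of 0.10. The median was 0.06 without WT replicate 1 and 0.04 without knockout-labelled replicate 3, and without knockout-labelled replicate 1 it was 0.11, with 1 higher and 1 lower. Tfam, which packages mitochondrial DNA, named here after its value was seen, had a log2 estimate of 0.10 (edgeR adjusted p = 0.521). Of 11 nuclear regulators of genes for mitochondrial proteins 2 rose (18.2%) and 0 fell, also without the library labelled knockout replicate 1. Of these 11, 5 had a positive estimate, and the median log2 change was -0.10, or -0.03 without that library. The groups did not overlap for 2 higher and 4 lower, against 16.9% and 15.6% of tested genes. With an unadjusted p below 0.05 (edgeR), 2 were higher and 2 lower. Esrra, the estrogen-related receptor alpha, had 42.9, 44.6 and 41.0 CPM in WT and 61.2, 77.3 and 74.5 CPM in the libraries labelled knockout (log2 change 0.73 ± 0.10, edgeR adjusted p = 0.0113). Esrrg, its relative, rose from 1.24 ± 0.0348 to 4.98 ± 2.32 CPM (edgeR adjusted p = 0.0253). Nrf1, the nuclear respiratory factor, did not pass and pointed downward, with a mean of 29.3 ± 0.940 CPM for WT against 24.4 ± 0.502 CPM for the other group (n = 3 each, SD) and no overlap (log2 change -0.26 ± 0.072, edgeR adjusted p = 0.0664), and was at -0.25 without the library labelled knockout replicate 1 (0.115). The call of Esrra ended without WT replicate 2 or 3 (edgeR adjusted p = 0.0582 and 0.0628). That of Esrrg ended with limma-voom (adjusted p = 0.055) and without any library other than the one labelled knockout replicate 1 (edgeR adjusted p from 0.0522 to 0.108).

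The ribosome of the cytosol was examined beside that of the mitochondrion. Of its 47 large and 32 small subunit genes 0 were called with edgeR (1 and 0 higher and 0 lower with an unadjusted p below 0.05), and the medians were 0.09 and 0.09. These depended on single libraries: they were 0.02 and 0.01 without WT replicate 1, with 26 and 20 genes above 0, and 0.15 and 0.17 without knockout-labelled replicate 3. Without knockout-labelled replicate 2 they were 0.04 and 0.04, and without replicate 1 of that group 0.08 and 0.09. The groups did not overlap for 4 of the large subunit genes (8.51%) and 0 of the small, with the libraries labelled knockout higher. Over all tested genes these libraries lay above in 16.9% and below in 15.6%, so the cytosolic counts were under that share. Cytosolic ribosomal genes have many near-identical copies that can share reads, so their values are uncertain. The difference between the ribosomes of the 2 compartments was not tested.

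**Figure D5:**
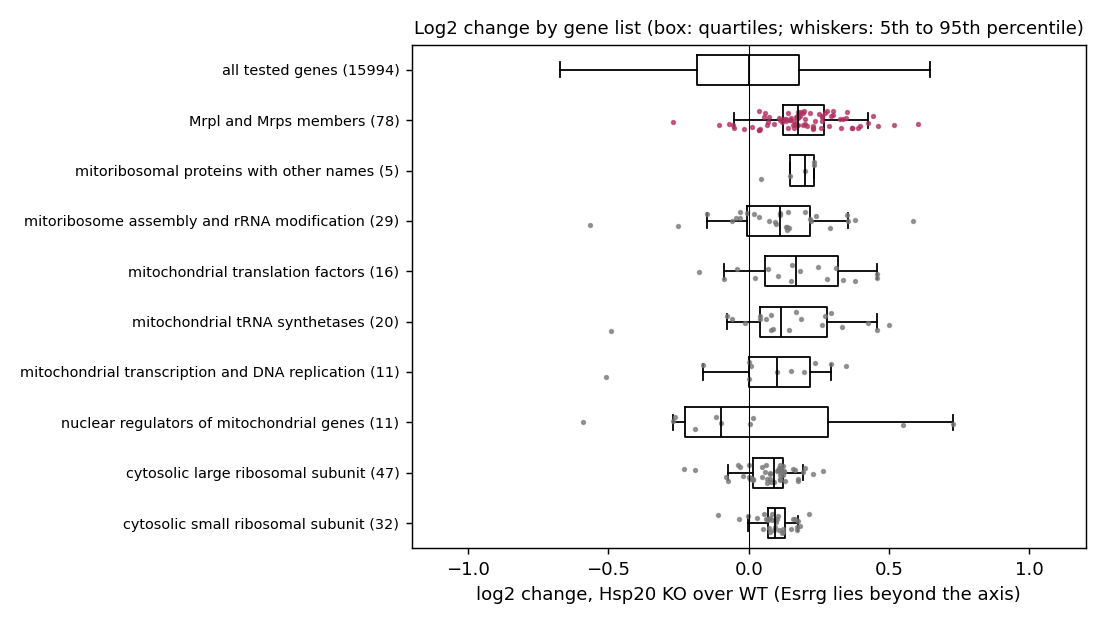
Log2 change (horizontal axis) of the genes of each list, with the number of genes in parentheses; boxes give quartiles, whiskers the 5th to 95th percentile and points single genes, except Esrrg, which lies beyond the axis. The members have a median of 0.18, the cytosolic lists of 0.09 and all tested genes of 0.001.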

How the data were processed

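The deposited table holds unnormalized whole-number read counts of each gene, from the authors, in 6 columns that match the 6 mice of the design. The submitters' processing notes list the tools bcl2fastq, CASAVA 1.8, TopHat and DESeq, with mm10 and GRCm38 as builds. Counter, annotation and strand were not given in the sources used here. Symbols came from RefSeq GRCm38.p6 for 24334 of 24415 gene IDs. Messages encoded by mitochondrial DNA were not analysed here.

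Counts were filtered (edgeR 4.0.16 filterByExpr, minimum count 10, minimum total 15), scaled by TMM and tested with the quasi-likelihood F test in R 4.3.3, genotype being the only term, adjusted over 15994 genes with a threshold of 0.05. SEs were derived from the F statistic and the estimate. The smallest library limits low genes. Libraries of a group all differed by more than sampling noise, with a chi-square over its degrees of freedom of 17 or more. The labels name no litter or batch. Alternatives used DESeq2 1.42.0, limma 3.58.1, other normalizations, filters and thresholds, a replicate block, thinning to the smallest library, and leaving out each library or the member near Hspb6. The fit was tested on data simulated from these libraries with known changes. It called 6.12% of changes of 1.3-fold, 34.7% of 1.5-fold, 68% of 2-fold and 98% of 4-fold. Of its calls 6.36% were false. Changes below 1.3-fold were not simulated. Lengths, strands and overlaps came from GENCODE M21, on the same build.

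Named members were the 5 highest and 5 lowest log2 changes, the 5 smallest p, the 3 most and 3 least abundant, the 2 on either side of the threshold, the Mrps18 paralogs, Mrpl12, Mrps12, Mrps36 and any within 10 Mb of Hspb6, and up to 4 genes per related list. Genes outside this rule were named after their values were seen. The members and lists were chosen with earlier results of these data known.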

Additional observations from a re-analysis of the deposited data

How the results depend on the processing

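The members' median log2 change stayed positive in every alternative run, from 0.141 (without WT replicate 1) to 0.239 (without the library labelled knockout replicate 1). The median of single libraries had an SD of 0.091 within groups. Leaving out 1 of 3 libraries moves a group mean by only part of a library's deviation, so a move below that SD is no sign of stability. Between 67 and 73 of 78 members were above 0. The count of members called higher was 3, and it was 11 with DESeq2, 5 with DESeq2 size factors in edgeR, 7 with upper quartile normalization, 0 at a threshold of 0.01 and 15 at 0.1, where 1 was lower. Over all genes, 676 were higher and 547 lower. These were 694 and 555 with DESeq2 size factors, 754 and 489 with upper quartile normalization, where the median of all genes moved to 0.016, 1135 and 1024 with DESeq2, 94 and 58 at a threshold of 0.01, and 1250 and 1126 at 0.1. Leaving out single libraries gave 0 to 8 members higher, and 75 to 941 genes higher and 53 to 730 lower. Fewer samples enter these fits, and the cause of the differences between libraries was not tested. With the replicate number as a replicate block 0 members were called (28 higher and 1 lower with an unadjusted p below 0.05), and 226 genes were higher and 169 lower. The numbers share only a name: same-numbered libraries deviated together with correlations of -0.0453, 0.104 and -0.123, and 1 of 3 pairs matched best by number. Thinning left 1 synthetase called, against 4.06% of tested genes higher. DESeq2 called 4 translation factors and 4 synthetases, against 7.1% of tested genes higher. Among single named genes, 7 estimates changed sign, all of genes not called. Leaving out single libraries gave -0.105 to 0.047 for Mrpl22, -0.138 to 0.004 for Mrpl52 and -0.067 to 0.097 for Mrps18a. Mrpl22 was at 0.047 without the library labelled knockout replicate 1 and at 0.040 and 0.012 without WT replicate 2 or 3. Mrpl52 was at 0.004 without the library labelled knockout replicate 3. Mrps18a was at -0.032 after thinning, at -0.067 without the library labelled knockout replicate 1 and at -0.022 without WT replicate 1. The members' lowest count was 156. After thinning to the smallest library, 4 members were higher and 0 lower, against 4.06% and 3.09% of tested genes. Of the 3 members called over all libraries, 2 stayed called and Mrps34 did not. The part of depth in these results was not tested otherwise.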
